A study of Mus with 2 samples.

Results

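Plasmacytoid dendritic cells (pDC) of mouse bone marrow were taken from a pool of cell barcodes by the counts of a few genes. Barcodes entered the pool with 500 or more unique molecular identifiers (UMIs, tags that let each captured molecule be counted once), 250 or more genes and no more than 10% of UMIs from mitochondrial genes. A barcode was called a pDC if it held at least 3 UMIs of Siglech, at least 1 of Bst2, at most 1 of the B cell gene Cd79a, and fewer than 3 of the macrophage genes C1qa, C1qb and C1qc together. The rule found 376 cells among 18089 kept barcodes, 175 of 8909 in the library named ground and 201 of 9180 in the library named running. The cells were thus chosen by their measured counts of Siglech, Bst2, Cd79a and the C1q genes, and those values describe the selection and are not results.

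The study compared hindlimb marrow of mice labelled ground with that of mice labelled running, by droplet single-cell RNA sequencing of transcript 3′ ends, with 1 library per group. No genetic change or drug is named for either group. How many mice stand behind a library, their strain, sex and age, and how and for how long they ran are not given in the sources used here. With 1 library per group no difference has a replicate check, no test was possible, and library preparation and running cannot be told apart. All intervals are 95% intervals that cover counting error only.

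pDC are dendritic cells that form in the bone marrow and specialise in sensing viral nucleic acids. They carry the endosomal receptors TLR7 and TLR9 and, once triggered, release large amounts of type I interferon. The transcription factor Tcf4 (E2-2) sets and maintains their identity and opposes Id2, which favours conventional dendritic cells. Siglech is an inhibitory sialic acid-binding receptor that marks pDC in the mouse, and Bst2 (tetherin) is an antiviral surface protein carried by resting mouse pDC.

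Among the 4 marker genes of the cell type, Siglech and Bst2 chose the cells. Tcf4 and Irf8, which the rule did not use, were present at high level in both libraries. Tcf4 had at least 1 UMI in 175 of 175 ground and 201 of 201 running pDC. The same share was 51.5% and 53.3% in the B cell gate (754 and 751 barcodes with Siglech at 0, Cd79a of at least 3 and Ms4a1 of at least 1), where the median depth was 3290.5 and 3548 UMIs against 6811 and 7131 in pDC. After thinning each cell to 2000 UMIs, which left out 3 ground and 0 running pDC, Tcf4 was seen in 97.1% and 98.0% of pDC. Irf8, a transcription factor of the dendritic and monocytic lineages, was likewise found in all pDC of both libraries, and in 99.4% and 99.5% after thinning (74.3% and 69.9% of the B cell gate). Counts were summed over the cells of a library and scaled to the library's total (CPM, the summed count relative to all UMIs of those cells). On this scale ground pDC had Tcf4 at 2231 CPM and running pDC at 2442 CPM, and Irf8 at 4106 and 3897 CPM. In all other kept barcodes Tcf4 stood at 48.2 and 54.4 CPM.

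**Figure D1:**
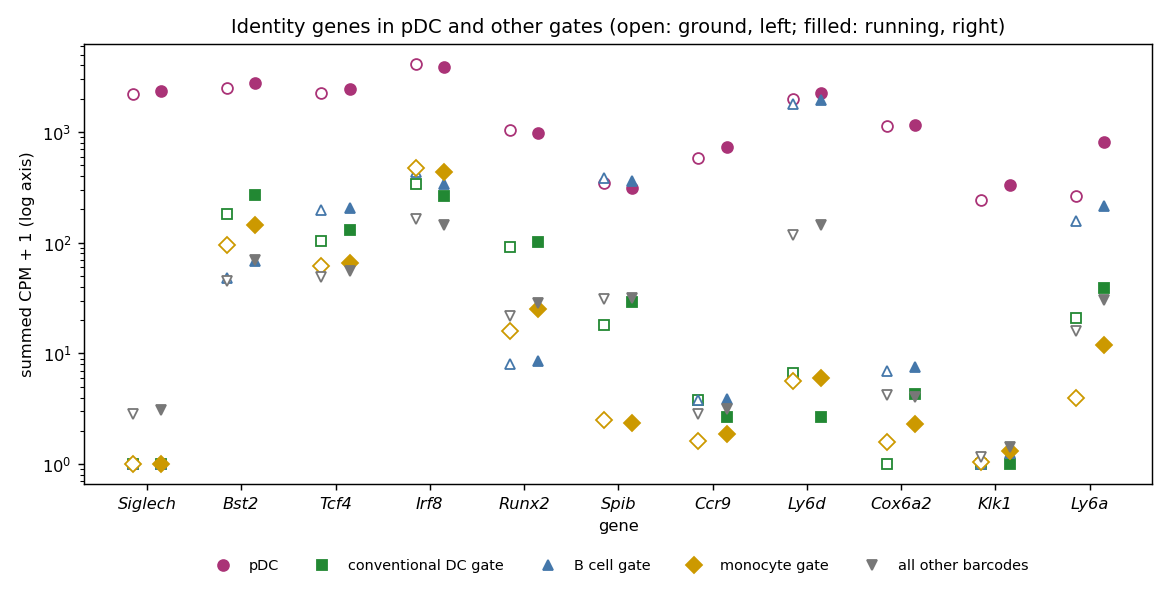
Summed CPM plus 1 (log axis) of 11 identity genes in pDC, the conventional dendritic, B cell and monocyte gates and all other barcodes, with open symbols for ground and filled symbols for running. Siglech is 0 in the 3 gates by definition. Tcf4, Runx2, Ccr9, Cox6a2 and Klk1 lie above every other gate in both libraries, whereas Spib and Ly6d are near the pDC level in the B cell gate.

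Of 6891 genes with at least 50 UMIs over the pDC of both libraries, 908 (13.2%) were at least 2-fold higher in pDC than in all other barcodes and 290 (4.21%) at least 2-fold lower, with 10 CPM added to both levels. The 20 highest ratios among genes seen in at least 25% of pDC were led, after Siglech itself, by Cox6a2 (a heart and muscle form of a cytochrome oxidase subunit, 88.0-fold), the gut-homing chemokine receptor Ccr9 (56.1-fold), the G1 cyclin Ccnd1 (46.2-fold), Bst2 (40.0-fold) and Tcf4 (38.5-fold). Runx2, a transcription factor needed for pDC to leave the marrow, was 29.9-fold higher. The kallikrein Klk1 was 29.1-fold higher and Irf8 24.5-fold. P2ry14, a receptor for UDP-sugars, was 22.8-fold higher, and Cd7 22.1-fold. The remaining 9 were Gm21762, Kmo (kynurenine monooxygenase), Upb1, Pacsin1, Pltp (a phospholipid transfer protein), Cd209d, Ly6a, the lysosomal protease Ctsl and Cd300c, between 17.5-fold and 32.9-fold. In ground the lowest of the 20 ratios was that of Ly6a (11.01-fold), and in running that of Cd300c (17.6-fold). Since these cells were chosen by counts from the same libraries, the ratios are a description.

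Depth was similar in the pDC of both libraries. The ground pDC held 1413947 UMIs in all, from 893 to 36290 per cell, and the running pDC 1710740 UMIs, from 3704 to 90297 per cell. The median number of genes was 2482 and 2525. Mitochondrial transcripts took a median of 4.93% and 4.96% of UMIs, against 1.14% and 1.0% in the other barcodes and 4.26% and 4.09% in the B cell gate, so that a limit of 5% would have kept 92 and 103 cells. Without any limit on mitochondrial UMIs 180 and 208 cells met the rule. The libraries shared 24 barcode sequences, of which 2 belonged to a pDC in either library and 0 to a pDC in both. A doublet caller, Scrublet, marked 7 ground and 6 running pDC, which were kept.

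The count of Siglech that chose the cells was far from its limit in most of them. The median pDC had 17 Siglech UMIs in ground and 19 in running, and 8652 and 8899 of the kept barcodes had none. Just inside the limit, 33 pDC with 3 to 5 Siglech UMIs (17 ground, 16 running) had Tcf4 at 1016 CPM and Ccr9 at 65.6 CPM. Just outside it, 67 barcodes with 1 to 2 Siglech UMIs that met every other criterion had Tcf4 at 186 CPM, Ccr9 at 2.80 CPM and the neutrophil gene S100a8 at 11903 CPM. The 343 pDC with 6 or more Siglech UMIs had Tcf4 at 2506 CPM and Ccr9 at 735 CPM.

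pDC made up 1.96% of kept ground barcodes (interval 1.69 to 2.27%) and 2.19% of running barcodes (1.90 to 2.51%). The ratio of the shares was 1.11 (0.912 to 1.36), so a difference in pDC frequency was not detectable at this number of cells.

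Within the pDC, running and ground were compared gene by gene as the log2 ratio of summed CPM. Of the 6891 genes, 104 (1.51%) differed at least 2-fold, 50 higher in running (0.726%) and 54 lower (0.784%). Without the dividing cells described further on, 42 were higher and 21 lower, and among pDC with at least 5 Siglech UMIs 49 and 89. Ratios above 0 were found for 47.7% of genes and below 0 for 52.3%, with a median of −0.01. Against this background Ly6a, MHC genes and interferon-induced genes had higher ratios, cell cycle genes had lower ratios, and the transcription factors of pDC had ratios near 0.

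**Figure D2:**
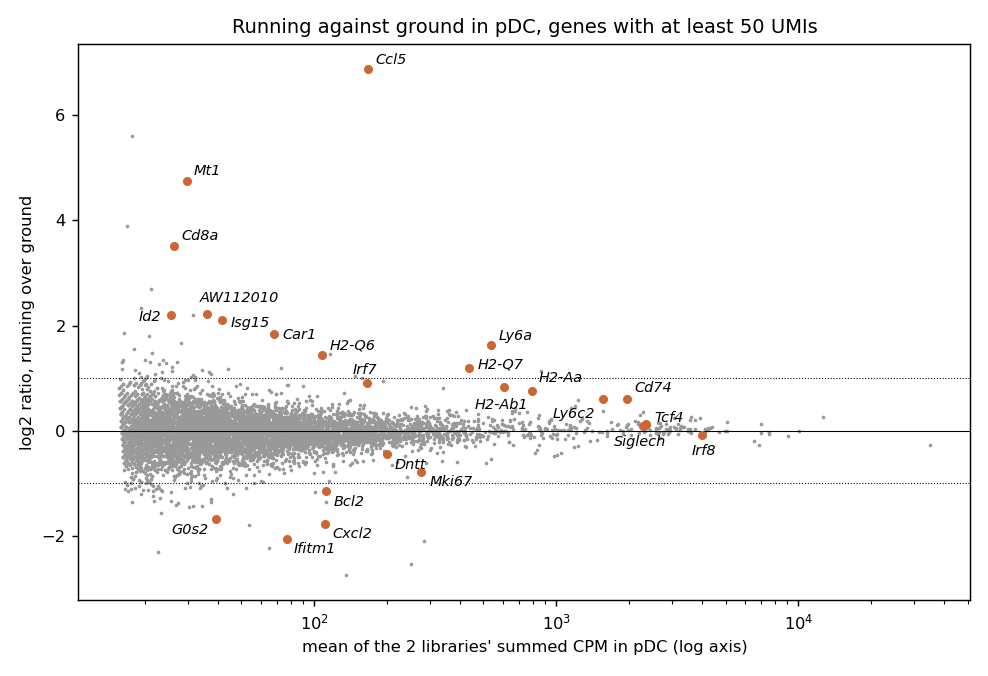
Log2 ratio of summed CPM in pDC, running over ground, against the mean of both libraries' CPM (log axis), for genes with at least 50 UMIs, with 24 named genes in orange and dotted lines at a 2-fold difference. Ly6a, H2-Q7, H2-Ab1, H2-Aa and Cd74 lie above the mass of genes of like level. Tcf4 and Irf8 lie near 0, and Ccl5, Mt1 and Cd8a have the highest marked ratios. Siglech, also marked, chose the cells and its ratio is not a result.

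The transcription factors of pDC had ratios near the background. Of 20 such factors 17 had enough UMIs, 7 were above 0 and 10 below, the median was −0.02, and 1 was past 2-fold. Tcf4 had a log2 ratio of 0.13 (0.06 to 0.20), Irf8 −0.08 (−0.13 to −0.02), Runx2 −0.07 (−0.17 to 0.04) and Zeb2 −0.00 (−0.14 to 0.13). Spib, an Ets factor of pDC and B cells, was at 348 and 312 CPM in ground and running (−0.16, −0.34 to 0.02). Bcl11a, which acts upstream of Tcf4, stood at 1006 and 910.1 CPM (−0.14, −0.25 to −0.04). Irf7, which drives interferon transcription downstream of TLR7 and TLR9, was at 115 and 216 CPM (0.91, 0.64 to 1.19). Its UMIs were found in 86 of 175 ground pDC (49.1%) and 144 of 201 running pDC (71.6%), and in 22.1% and 32.8% after thinning, against 4.91% and 6.39% of the B cell gate. Id2, the factor opposed to Tcf4, was the one past 2-fold, with 13 UMIs in 9 ground cells and 72 UMIs in 18 running cells (2.19, 1.33 to 3.17). Without the pDC that held a UMI of the T cell genes Cd3d, Cd3e or Cd3g (1 ground, 5 running), Id2 had 13 UMIs in ground and 22 in running.

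Ly6a, the stem cell antigen Sca-1, which is interferon-inducible in many lymphoid cells, was the surface gene that differed most among those with many UMIs. It lies at chr15:74994877-74998031 in GRCm38.p6 (ENSMUSG00000075602). Ground pDC held 372 Ly6a UMIs (263 CPM) and running pDC 1386 UMIs (810.2 CPM), a log2 ratio of 1.62 (1.46 to 1.79). The median ground pDC had 1 Ly6a UMI, with quartiles of 0 and 3, and the median running pDC had 5, with quartiles of 2 and 10, so the cells of the libraries overlapped while the median and both quartiles were higher in running. Cells with a Ly6a UMI made up 50.9% of ground pDC (43.2 to 58.5%) and 84.1% of running pDC (78.3 to 88.8%), or 33.7% and 65.7% after thinning to 2000 UMIs. In the B cell gate, which also expresses Ly6a, the shares were 30.0% and 36.1%, and in the monocyte gate 3.67% and 8.26%.

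The ratio of Ly6a in pDC was above that of the B cell gate and of all other barcodes, and was not separated from that of the monocyte gate. It was 0.47 (0.31 to 0.63) in the B cell gate, where the level went from 155 to 215 CPM, and the pDC ratio exceeded it by 1.15 (0.92 to 1.38). In all other barcodes together it was 0.98 (0.88 to 1.08), exceeded by 0.64 (0.45 to 0.83). The monocyte gate (Siglech at 0, at least 1 UMI each of Ccr2 and F13a1, at least 3 of Ly6c2, and the same Cd79a and C1q limits) had a ratio of 1.89 (1.45 to 2.35) at a much lower level, 2.97 and 10.995 CPM, and the difference from pDC was −0.27 (−0.73 to 0.20).

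The list of surface and other identity genes leaned upward in pDC, and also outside them. All 37 had enough UMIs, 29 were above 0 and 8 below, with a median of 0.15, and 2 were past 2-fold upward (Ly6a and Cd8a). The 29 include Siglech and Bst2, whose counts chose the cells and are not results. The median equals the ratio of Bst2 (0.148). In all other barcodes 28 of 36 genes of this list were above 0, with a median of 0.275, against 0.079 for all genes tested there. In the monocyte gate 16 of 21 were above 0 (median 0.267), in the B cell gate 12 of 17 (0.072) and in the conventional dendritic gate 7 of 12 (0.071). In pDC, Ly6c2, a Ly6 antigen carried by pDC and monocytes, was at 1236 and 1886 CPM (0.61, 0.53 to 0.70). The summed monocyte markers in pDC went from 1471 to 2218 CPM, with a median cell at 981 and 934 CPM, cells from 0 to 14278 and from 0 to 27645 CPM and all 8 markers detected in both libraries, and their part in the Ly6c2 difference was not tested. The chemokine receptor Ccr9 went from 579 to 732 CPM (0.34, 0.21 to 0.47), and Klk1 from 240 to 331 CPM (0.47, 0.27 to 0.67). Cyb561a3 (0.38, 0.21 to 0.56) and Smim5 (0.36, 0.19 to 0.54) were also higher. The lowest ratios were those of the ephrin receptor Epha2, at 57.3 and 35.1 CPM (−0.71, −1.21 to −0.21), and of Dntt, the terminal transferase of early lymphoid cells, at 231 and 169 CPM (−0.45, −0.68 to −0.22). Siglech itself was at 2209 and 2349 CPM (0.09, and −0.066 without dividing cells), Ly6d at 1992 and 2253 CPM (0.18), Cox6a2 at 1141 and 1149 CPM (0.01) and Cd209d at 204 and 191 CPM (−0.10).

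Cd4 and Cd8a, coreceptors best known from T cells and also found on part of the mouse dendritic cells, were seen in more running pDC. Cd4 had UMIs in 59 ground pDC (33.7%) and 102 running pDC (50.7%), or 15.1% and 22.4% after thinning, and in 0 of 754 and 0 of 751 barcodes of the B cell gate. Its level went from 101 to 165 CPM (0.71, 0.42 to 1.01). Cd8a (chr6:71373427-71379171, ENSMUSG00000053977) had 6 UMIs in 6 ground pDC (3.43%, 1.27 to 7.31%) and 83 UMIs in 30 running pDC (14.9%, 10.3 to 20.6%). After thinning the shares were 1.16% and 6.97%, and in the B cell gate 0.133% and 0.399%. No ground pDC had more than 1 Cd8a UMI, whereas 19 running pDC had 2 or more. The log2 ratio was 3.52 (2.33 to 5.002), against 0.80 (0.57 to 1.03) in all other barcodes, a difference of 2.72 (1.501 to 3.93). The B cell gate held only 1 and 3 Cd8a UMIs, and the difference from it, 2.03 (−1.44 to 5.51), had an interval that held 0.

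Cd8b1, the chain that pairs with Cd8a on cytotoxic T cells, is named here after its values were seen and had 56 UMIs in 35 ground pDC (20%) and 75 UMIs in 33 running pDC (16.4%), a log2 ratio of 0.15 (−0.37 to 0.67). Of the 30 running pDC with Cd8a, 3 also held a UMI of Cd3d, Cd3e or Cd3g. Without every pDC holding such a UMI, Cd8a was found in 6 of 174 ground pDC (3.45%) and 27 of 196 running pDC (13.8%), with 6 and 61 UMIs.

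**Figure D3:**
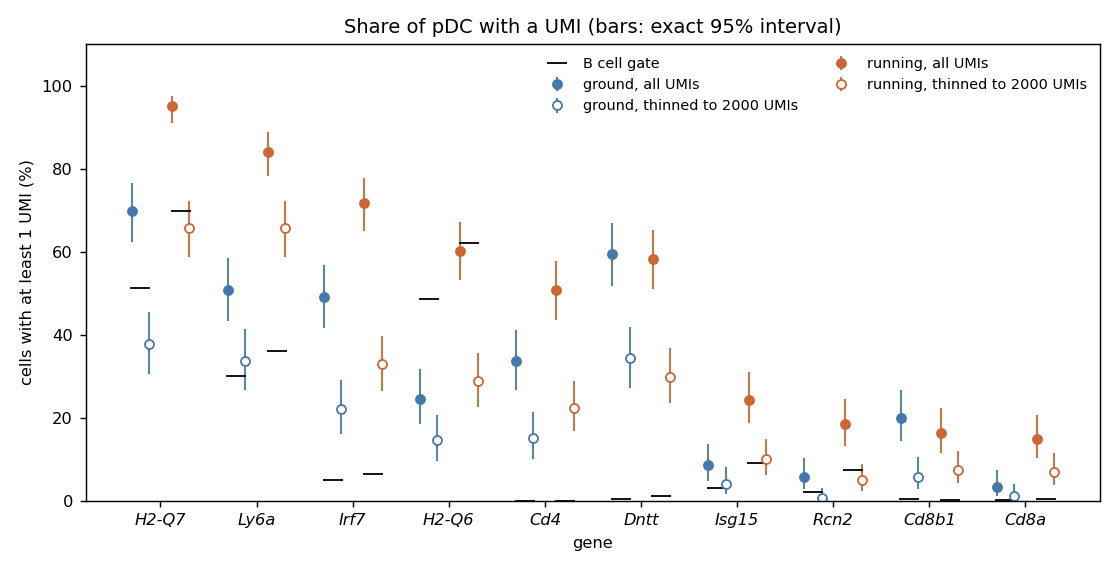
Share of pDC with at least 1 UMI of 10 genes in ground (blue) and running (orange), with exact 95% intervals, for all UMIs (filled) and after thinning to 2000 UMIs (open); black dashes give the B cell gate without thinning. H2-Q7, Ly6a, Irf7, H2-Q6, Cd4, Isg15, Rcn2 and Cd8a have a higher share in running than in ground with all UMIs, and Dntt and Cd8b1 do not; H2-Q6 lies at or below the B cell gate.

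A few genes at the top of the ranking rested on 1 or a few cells. Among genes with at least 100 UMIs the 10 highest ratios belonged to Ccl5, Mt1, AW112010, C1qtnf12, Isg15, Car1, Ly6a, H2-Q6, Apoe and H2-Q7. Ccl5, a chemokine of activated T and natural killer cells, had 4 UMIs in ground and 568 in running (6.88, 5.51 to 8.76), of which 385 came from 1 cell with 26437 UMIs and 117 from another. Only 13 of the 568 UMIs, in 13 cells, came from the 196 running pDC without a Cd3 UMI. In the same subset AW112010 had 18 UMIs in ground and 35 in running, compared with 18 and 101 in all pDC. The 8 T cell markers summed to 10.6 CPM in ground pDC, where 5 of them were at 0, and to 76.6 CPM in running pDC, where none was at 0 and 1 cell reached 5132 CPM. The 7 natural killer markers summed to 20.5 and 73.7 CPM, with Ncr1 and Eomes at 0 in both libraries.

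One running pDC with 90297 UMIs held 175 of the 182 Car1 UMIs, 85 of the 98 Mt1 UMIs and 72 of the 89 C1qtnf12 UMIs. Car1 is a carbonic anhydrase of red cells, Mt1 a metallothionein and C1qtnf12 a secreted C1q and TNF family protein. For each gene the UMIs of its own top cell in each library were then left out, with the library totals kept. The ratio of Car1 turned to −0.64 from 1.84, and that of Mt1 was 2.43 in place of 4.76. For C1qtnf12 it was 1.23 in place of 2.20, and for Apoe, an apolipoprotein of macrophages, 0.64 in place of 1.19. The ratios of Ly6a (1.68), Isg15 (2.37), H2-Q6 (1.51) and H2-Q7 (1.24) did not fall when their top cells were left out.

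Genes of endosomal nucleic acid sensing had ratios near the background. Of 24 genes of TLR7 and TLR9 sensing in the files 20 had enough UMIs, 12 were above 0 and 8 below, with a median of 0.04 and none past 2-fold. Tlr7, the receptor for single-stranded RNA, had 100 UMIs in 67 ground pDC and 174 in 96 running pDC, at 70.7 and 102 CPM (0.52, 0.16 to 0.89). The share of pDC with a Tlr7 UMI was 38.3% and 47.8%, or 12.2% and 17.4% after thinning, against 4.51% and 7.72% in the B cell gate. Tlr9, the receptor for CpG DNA, was seen in 10 ground and 11 running pDC, too few for a comparison. Unc93b1, which carries both receptors to endosomes, stood at 504 and 461 CPM (−0.13, −0.28 to 0.02). The transporter Slc15a4 (−0.00), the chaperone Cnpy3 (−0.26, −0.64 to 0.12) and the kinase Irak1 (−0.23, −0.56 to 0.10) had intervals that reached 0. Pld4, an endosomal exonuclease, was at 595 and 687 CPM (0.21, 0.08 to 0.34).

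The interferons themselves were not captured. Of 21 interferon genes 19 had 0 UMIs in the pDC of both libraries, among them all genes for interferon alpha and Ifnb1. Ifnk had 1 UMI in ground, and Ifng had 4 UMIs in 1 running cell. A count of 0 over all pDC allows up to 3 UMIs per library, or 3 of 1413947 and of 1710740.

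Genes that type I interferon induces had mostly positive ratios in pDC. Of 26 with enough UMIs, 25 were above 0 and 1 (Trim30a, −0.01) below, the median was 0.34, and 2 were past 2-fold. The 25 include Bst2, whose counts chose the cells. Isg15, a ubiquitin-like antiviral protein, had 22 UMIs in 15 ground pDC (8.57%) and 115 in 49 running pDC (24.4%), a log2 ratio of 2.11 (1.44 to 2.84). After thinning 4.07% and 9.95% of pDC had an Isg15 UMI. The B cell gate had 3.18% and 9.05% without thinning, at a median of 3290.5 and 3548 UMIs. These depths are unlike, so the shares are not compared. Summed Isg15 was at 15.6 and 67.2 CPM in pDC and at 10.5 and 27.6 CPM in the B cell gate. The gate's own ratio was 1.40 (0.85 to 1.98), and the pDC ratio minus it was 0.71 (−0.14 to 1.56). Whether the Isg15 UMIs of pDC stood above background was not tested. Xaf1, named here after its values were seen, was the other gene past 2-fold, with 13 and 46 UMIs (1.55). Ifitm3, which blocks viral entry, stood at 132 and 254 CPM (0.95, 0.70 to 1.21). Lgals3bp was at 34.7 and 63.7 CPM (0.88, 0.38 to 1.40). The receptor genes Ifnar1 (−0.03) and Ifnar2 (−0.06) were near 0.

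The median of that list in pDC was the lowest of the gates compared. It was 0.83 over 29 genes in the conventional dendritic gate (60 ground and 50 running barcodes with Siglech at 0, at least 2 Cd209a UMIs and the same Cd79a and C1q limits), 0.53 over 37 genes in the B cell gate and 0.82 over 45 genes in the monocyte gate. In all other barcodes together it was 0.69 over 45 genes. The lists share only the genes with at least 50 UMIs in each gate, so the sets of genes differ. For Ifi27l2a, an abundant member singled out after its values were seen, the pDC ratio was 0.43 (0.30 to 0.56). It lay below the ratio of the monocyte gate, with a difference of −0.74 (−0.86 to −0.61), and below that of all other barcodes, with a difference of −0.66 (−0.79 to −0.53). Against the B cell gate members went both ways. The difference was −0.20 (−0.35 to −0.04) for Ifi27l2a and 1.48 (1.20 to 1.76) for Ifitm3, so a single member does not stand for the list. Bst2, which pDC carry at rest, was at 2484 and 2752 CPM (0.15), and chose the cells.

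**Figure D4:**
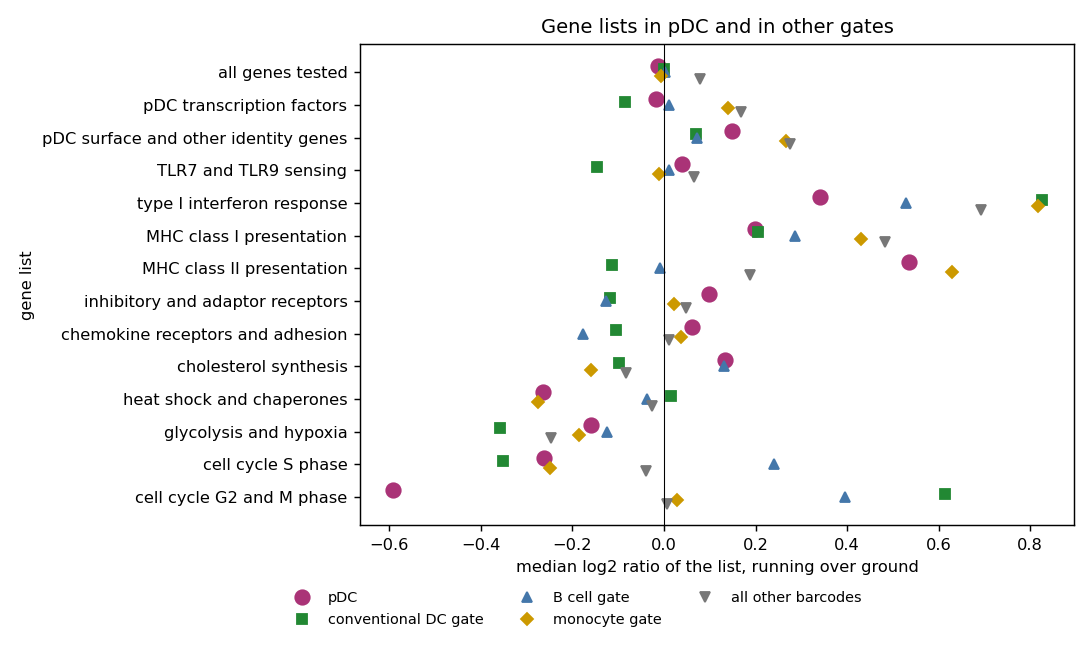
Median log2 ratio, running over ground, of 13 gene lists and of all genes tested, in pDC (large circles) and in the conventional dendritic, B cell and monocyte gates and all other barcodes. In pDC the type I interferon list lies at 0.34, below the other gates, the MHC class II list at 0.54 and the G2 and M phase list at −0.59, the lowest point drawn.

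Genes of antigen presentation had mostly positive ratios. In the MHC class I list 23 of 24 genes had enough UMIs, 18 were above 0 and 5 below (Erap1, Pdia3, Calr, Tap2 and Tapbp), with a median of 0.20 and 3 past 2-fold. H2-Q7 (chr17:35439140-35443773), a nonclassical class I gene, had 375 UMIs in 122 ground pDC (69.7%) and 1033 UMIs in 191 running pDC (95.025%), a log2 ratio of 1.19 (1.01 to 1.36). After thinning 37.8% and 65.7% of pDC had an H2-Q7 UMI, against 51.3% and 69.8% of the B cell gate without thinning. Its neighbour H2-Q6, nearly identical in sequence so that reads may be split between them uncertainly, stood at 58.0 and 158 CPM (1.44, 1.08 to 1.82). The third was Nlrc5, the class I transactivator, with 22 and 66 UMIs (1.31), named here after its values were seen.

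The classical class I genes H2-K1 and H2-D1 were also higher. H2-K1 went from 982 to 1469 CPM (0.58, 0.49 to 0.68), with a median of 7 UMIs in a ground pDC and 10 in a running pDC. H2-D1 went from 977 to 1312 CPM (0.42, 0.33 to 0.52), and their shared light chain B2m from 1359 to 1752 CPM (0.37, 0.28 to 0.45). H2-T22, a nonclassical gene, was at 64.4 and 116 CPM (0.85, 0.48 to 1.22). For H2-K1 the ratio in all other barcodes was 0.90, and the difference of pDC from it was −0.32 (−0.41 to −0.22). For H2-Q7 it was 1.64, with a difference of −0.45 (−0.63 to −0.27).

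The MHC class II list had the highest median in pDC of the 13 lists plotted. Of 16 genes 10 had enough UMIs, 9 were above 0 and 1 below (Ifi30, −0.14), with a median of 0.54 and none past 2-fold. H2-Aa (chr17:34282744-34287823), the alpha chain of I-A, had 834 UMIs in 100 ground pDC and 1692 UMIs in 142 running pDC, at 590 and 989 CPM (0.75, 0.62 to 0.87). Its partner H2-Ab1 went from 438 to 773 CPM (0.82, 0.68 to 0.96) and was found in 75 ground and 131 running pDC. H2-Eb1 went from 248 to 435 CPM (0.81, 0.62 to 0.996), and the invariant chain Cd74 from 1559 to 2364 CPM (0.60, 0.53 to 0.68). The same list had a median of −0.11 in the conventional dendritic gate, −0.01 in the B cell gate and 0.63 in the monocyte gate. The pDC ratio of H2-Aa exceeded that of the conventional dendritic gate by 0.76 (0.62 to 0.91) and that of the B cell gate by 0.78 (0.65 to 0.91), and its difference from the monocyte gate was −0.84 (−1.001 to −0.68).

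The 9 conventional dendritic markers summed to 350.1 CPM in ground pDC, with 1 of them at 0, and to 441 CPM in running pDC, with a median cell at 294 and 442 CPM and no cell above 2453 and 2044 CPM. The 10 B cell markers summed to 245 and 271 CPM, with a median cell at 205 and 239 CPM. Their part in the class II difference was not tested.

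Among cytokine receptors, 15 of 18 genes had enough UMIs, 10 were above 0 and 5 below, and the median was 0.04. Il2rg, the shared gamma chain, had 30 UMIs in 24 ground pDC and 81 UMIs in 52 running pDC (1.16, 0.54 to 1.81), the one past 2-fold. Il10rb, a chain of the interleukin 10 and interferon lambda receptors, was at 55.2 and 101 CPM (0.87, 0.48 to 1.28). Il21r was at 74.97 and 47.4 CPM (−0.66, −1.10 to −0.23). Flt3, whose ligand sustains dendritic cell production, was at 147 and 135 CPM (−0.12, −0.40 to 0.15), and Il7r, also 7.50-fold above the other barcodes in pDC, was at 252 and 333 CPM (0.40, 0.21 to 0.60).

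Homing genes went both ways, with 11 of 19 above 0 and a median of 0.06. Cxcr4, which retains cells in the marrow, stood at 87.0 and 53.8 CPM (−0.69, −1.10 to −0.29), and Itgb7, a gut-homing integrin chain, at 194 and 151 CPM (−0.37, −0.62 to −0.12). Itgal, the alpha chain of LFA-1, stood at 149 and 190.0 CPM (0.35, 0.09 to 0.60). Inhibitory and adaptor receptors had 18 of 20 genes above 0 with a small median of 0.10, Cd300a and Syk being below. The 18 include Siglech and Bst2, whose counts chose the cells. Tyrobp, the DAP12 adaptor through which Siglech signals, was at 3081 and 3134 CPM (0.02, −0.03 to 0.08).

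Part of the pDC carried cell cycle transcripts. A pDC was called dividing where genes of the S, G2 and M phase lists took more than 0.2% of its UMIs, a limit set on the values themselves. This held for 34 of 175 ground pDC (19.4%, 13.9 to 26.1%) and 28 of 201 running pDC (13.9%, 9.46 to 19.5%). Near the limit were 7 and 6 cells with 0.1 to 0.2%, and 7 and 5 cells with 0.2 to 0.4%. Dividing pDC had a median of 12908.5 and 12173 UMIs, against 6512 and 6842 in the others.

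Several genes that were high in pDC had lower CPM in the dividing cells of both libraries. CPM is relative to all UMIs, and dividing pDC held more UMIs per cell. A lower CPM therefore need not be a lower count per cell. Irf8 had 1442 UMIs in 34 dividing and 4364 in 141 other ground cells, and 1070 in 28 and 5596 in 173 running cells. Tcf4 had 525 and 2629 UMIs in the same ground cells, and 503 and 3674 in the running cells. Siglech and Bst2, whose counts chose the cells, are left aside here, since a minimum of 3 UMIs admits deeper cells at a lower CPM. Of the UMIs of dividing running pDC 21.4% came from the cell with 90297 UMIs. Tcf4, Irf8, Runx2, Ly6d and Bcl2 are therefore also given without cells above 25000 UMIs (2 ground and 2 running). Tcf4 was at 1080 against 2833 CPM in ground and 1190 against 2853 CPM in running. Irf8 was at 2967 against 4703 CPM in ground and 2531 against 4345 CPM in running. Without cells above 25000 UMIs dividing ground and running pDC had Tcf4 at 1167 and 1510 CPM, and Irf8 at 3088 and 3232 CPM. Ccr9 was at 177 against 789.9 CPM in ground and 220.0 against 901 CPM in running. H2-Aa was at 30.9 against 883 CPM and 49.7 against 1297 CPM, Cd74 at 111 against 2318 CPM and 125 against 3099 CPM, and Klk1 at 8.23 against 361 CPM and 2.36 against 439 CPM. Summed Runx2 in dividing against other cells was 772 and 1169 CPM for ground, 709.6 and 1079 CPM for running, and 912 CPM in dividing running pDC without cells above 25000 UMIs. For ground the median dividing cell had Runx2 at 738 CPM and the median other cell at 1001 CPM. For running these medians were 1003 and 1010.2 CPM, which do not differ by more than the spread between cells. Ly6d, Bcl2 and Klf4, a member of the transcription factor list, went the other way in both libraries. Klf4 was at 140 against 16.2 CPM in ground and 132 against 43.5 CPM in running. In both libraries together 53 of 376 pDC (14.1%) had a UMI of Klf4 or of the chemokine receptor Cx3cr1. Compared with the other pDC they had more of the monocyte markers F13a1 (171 against 5.31 CPM) and Lyz2 (2679 against 401 CPM). Their Tcf4 was at 1459 against 2592 CPM. Whether these cells are pDC was not tested. Ly6d was at 2360 against 1799 CPM in ground and 3309 against 1907 CPM in running, and at 2709 and 4212 CPM in dividing cells without those above 25000 UMIs. Bcl2, an inhibitor of apoptosis, was at 403 against 24.8 CPM and 222 against 19.4 CPM, and at 396 and 265 CPM in dividing cells without those above 25000 UMIs.

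**Figure D5:**
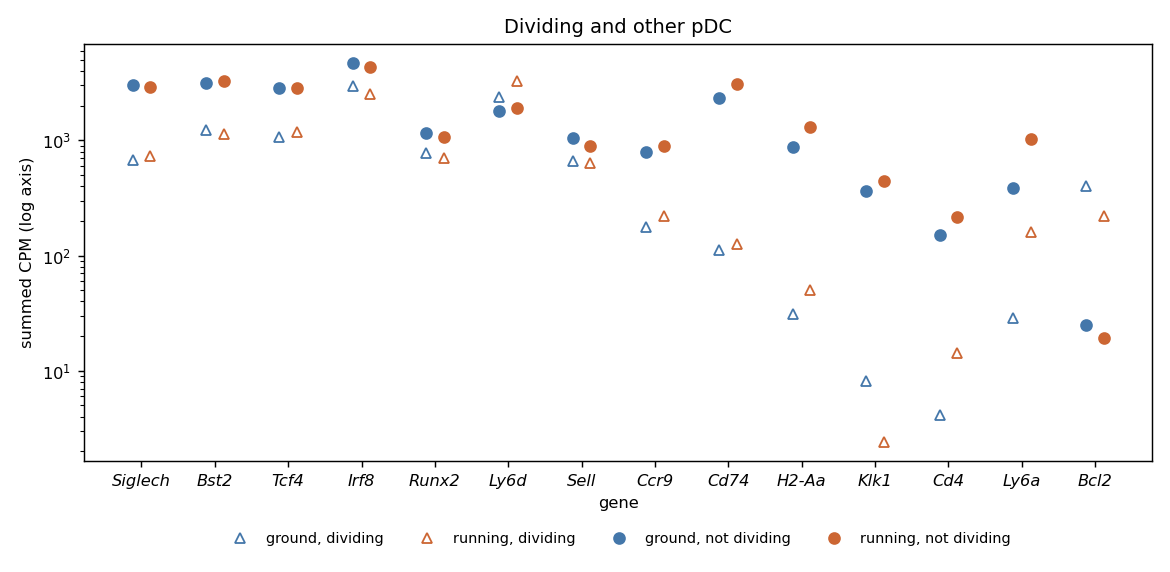
Summed CPM (log axis) of 14 genes in dividing pDC (open triangles, 34 ground and 28 running cells) and other pDC (filled circles, 141 and 173 cells), ground in blue and running in orange. Tcf4, Irf8, Ccr9, Cd74, H2-Aa, Klk1, Cd4 and Ly6a are lower in dividing cells of both libraries, and Bcl2 and Ly6d are higher. Siglech and Bst2 chose the cells.

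Cell cycle genes had lower ratios as a group. Of 19 S phase genes with enough UMIs, none was above 0, with a median of −0.26, and of 20 G2 and M phase genes none was above 0, with a median of −0.59. That median was −1.11 among pDC with at least 5 Siglech UMIs. Mki67, a marker of cycling cells, was at 348 and 203 CPM (−0.78, −0.98 to −0.58) and was seen in 36 ground and 29 running pDC. Top2a, the topoisomerase of mitotic chromosomes, was at 351 and 230.3 CPM (−0.61, −0.80 to −0.41), and Rrm2, which supplies nucleotides for replication, at 64.4 and 28.1 CPM (−1.20, −1.73 to −0.68). The intervals of the dividing share in ground and running overlap. The same G2 and M phase list was at 0.61 in the conventional dendritic gate, 0.40 in the B cell gate and 0.03 in the monocyte gate. Granulocyte-monocyte progenitor markers, of which Elane is the best known, moved in the same direction in pDC, with a sum of 207 and 74.2 CPM, all 5 detected in both libraries, a median cell at 123 and 0 CPM, and maxima of 2506 and 863 CPM. Their part in the cell cycle difference was not tested.

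Bcl2, among the 10 lowest ratios (−1.16, −1.49 to −0.83), was carried mostly by dividing cells. In other pDC it had 23 and 25 UMIs (−0.35, −1.23 to 0.53), and in dividing pDC 196 and 94 UMIs (−0.86, −1.23 to −0.50). Leaving out cells above 25000 UMIs brought the dividing pDC closer, to 396 CPM in ground and 265 CPM in running, in place of 403 and 222 CPM. Among the pDC that did not divide, differences remained for Ly6a, Cd8a, H2-Q7 and H2-Aa. Several other genes high in pDC had small ratios there or ratios below 0. Ccr9 had a ratio of 0.19 in place of 0.34, and Klk1 0.28 in place of 0.47. Pltp was at −0.044 in place of 0.155, and Pacsin1 at −0.043 in place of 0.169. There Ly6a was at 386 and 1024 CPM (1.41, 1.24 to 1.58) and in 82 of 141 and 156 of 173 cells. H2-Aa was at 883 and 1297 CPM (0.56, 0.43 to 0.68), H2-Q7 at 346 and 687 CPM (0.99, 0.80 to 1.18), and Cd8a had 5 UMIs in 5 ground cells and 69 in 26 running cells. Dntt had a lower ratio there than in all pDC (−0.78, −1.05 to −0.51). The medians of the type I interferon and MHC class II lists among these cells were 0.25 and 0.39, in place of 0.34 and 0.54. That of the G2 and M phase list was −0.37. Counts of this last list defined the split, so its median there describes the selection and is not a result.

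The pDC without a Ly6a UMI included more dividing cells than those with one. In ground 27 of 86 pDC without Ly6a were dividing, against 7 of 89 with it, and in running 15 of 32 against 13 of 169. Mki67 stood at 507 CPM without and 180.4 CPM with Ly6a in ground, and at 753 and 70.4 CPM in running. Ccr9 was at 418 CPM in ground cells without and 749 CPM in those with Ly6a, and at 702 and 845 CPM once dividing cells were left out. In running the values were 249.95 and 849 CPM, and 542 and 939 CPM without dividing cells, of which only 17 lacked Ly6a. Tcf4 was at 1893 CPM without and 2588 CPM with Ly6a in ground, and at 2804 and 2851 CPM without dividing cells. A cell without a UMI can hold the transcript, so this split, made after the values were seen, depends on depth as well as level.

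The lowest ratios between the libraries included genes of myeloid cells and of the cell cycle. The 10 lowest among genes with at least 100 UMIs were Ifitm1, Cxcl2, G0s2, Cstdc4, H1f0, Ncapg2, Rrm2, Wfdc17, Bcl2 and Tmem176a, from −2.05 to −1.10. Ifitm1, an interferon-inducible membrane protein also abundant in granulocytes, had 175 UMIs in 48 ground pDC and 51 UMIs in 19 running pDC. Of 243 Cxcl2 UMIs in ground 129 lay in 1 cell, and of 197 Wfdc17 UMIs 125 lay in 1 cell. Without the UMIs of its top cell in each library, the ratio of Wfdc17 turned to 0.031 from −1.17. The 11 neutrophil markers took 17987 CPM of ground and 15799 CPM of running pDC, with a median cell at 4047 and 3651 CPM and maxima of 310064 and 285748 CPM, and 11 and 9 pDC had more than 5% of their UMIs in them. S100a8 was found in all pDC and in nearly all barcodes of the B cell gate (99.6% and 100%). The part of neutrophil RNA in these ratios was not tested.

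Of 15 immediate early genes with enough UMIs 11 were above 0, with a median of 0.16. Jun, a subunit of the AP-1 factor, was at 79.2 and 125 CPM (0.66, 0.32 to 1.002), whereas its relative Junb was at 145 and 92.9 CPM (−0.64, −0.95 to −0.34), so members of this list went both ways. Of 12 apoptosis and p53 genes 6 were above 0, with a median of −0.05, and after Bcl2 the lowest was Casp8, an initiator caspase, at 81.3 and 53.2 CPM (−0.61, −1.03 to −0.20). Of 7 GTPase genes induced by interferon gamma 6 were above 0, with a median of 0.43, and Ifi47 was at 75.7 and 81.8 CPM (0.11, −0.26 to 0.49).

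Stress and metabolic genes gave smaller differences. Of 9 heat shock genes with enough UMIs, 7 were below 0 and 2 above (Hspe1 and Hspd1), with a median of −0.27. Without the UMIs of their own top cells in each library Hspe1 (−0.12) and Hspd1 (−0.33) were also below 0. Hsph1, a large chaperone, had 113 UMIs in 71 ground pDC and 70 in 48 running pDC (−0.97, −1.42 to −0.52), and Hspa8 was at 1351 and 1100 CPM (−0.30, −0.39 to −0.20). Glycolysis and hypoxia genes had 13 of 18 below 0 and a median of −0.16, with Pgam1 at 108 and 72.5 CPM (−0.57, −0.92 to −0.22) and Pkm at 198 and 147 CPM (−0.43, −0.68 to −0.18). Among glucocorticoid-responsive genes 7 of 8 were below 0, led by Fkbp5 at 51.6 and 27.5 CPM (−0.91, −1.47 to −0.36), Mt1 being the exception. Of 18 cholesterol synthesis genes 13 were above 0, with a median of 0.13, and 14 were at least 2-fold higher in pDC than in all other barcodes, against 13.2% of all genes tested. Secretory pathway genes, 22 of 34 above 0, had a median of 0.04.

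Rcn2, a calcium-binding protein of the endoplasmic reticulum, was seen in 10 ground pDC (5.71%) and 37 running pDC (18.4%), with 10 and 44 UMIs (1.86, 0.85 to 3.02). After thinning the shares were 0.581% and 4.98%, and in the B cell gate 2.12% and 7.46%. The ratio in all other barcodes was 1.98 (1.78 to 2.19), and its difference from pDC was −0.12 (−1.13 to 0.89). Itgb1, the integrin beta 1 chain, was at 115 and 128 CPM in pDC (0.16, −0.14 to 0.46), and Nrp2 had 0 UMIs in the pDC of both libraries.

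Markers of the remaining cell types differed in level. Macrophage markers, limited by the rule, summed to 7.07 and 8.18 CPM with Cd5l and Spic at 0, B precursor markers to 15.6 and 13.4 CPM with Bok at 0, and stromal markers to 1.41 and 2.34 CPM with Lepr, Col1a1 and Col3a1 at 0. Megakaryocyte markers summed to 2.83 and 7.6 CPM with Ppbp at 0 in both libraries. Plasma cell markers summed to 201 and 168 CPM, against 509 and 340 CPM over all kept barcodes, with Iglv1 at 0, stem and multipotent progenitor markers to 20.5 and 23.4 CPM with Mecom at 0, and basophil and mast markers to 9.90 and 23.4 CPM with Ms4a2 at 0. Erythroid markers summed to 1379 and 496 CPM, with 1 ground cell at 60636 CPM and a median cell at 286 and 281 CPM, against 11170.1 and 8438 CPM over all kept barcodes.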

How the data were processed

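Bone marrow cells of 1 ground and 1 running library were analysed. Per the file headers the deposited matrices, made with Cell Ranger 5.0.0, hold raw UMI counts, whole numbers for each gene in each barcode. The submitters' processing notes name STAR and mm10. Gene symbols came from the files, and 578 of 579 named or listed genes were matched by symbol to RefSeq coordinates of GRCm38.p6, the assembly of mm10. The quality limits removed 253 of 9162 ground and 293 of 9473 running barcodes.

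Counts were summed over the pDC of each library and scaled to CPM. Log2 ratios carry exact conditional binomial intervals, shares of cells exact Clopper-Pearson intervals, and ratios of shares and differences of log2 ratios normal intervals, all at 95%. "Past 2-fold" means a log2 ratio of at least 1 in size, "enough UMIs" at least 50 over both libraries. Intervals were tested on simulated counts. Scrublet (scanpy 1.11.5) set doublet scores, with thresholds of 0.242 and 0.322 that marked 243 and 100 barcodes. The software was matplotlib 3.10.9, pandas 2.3.3, scipy 1.17.1 and numpy 2.4.6 under Python 3.11.15.

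The text names the rule's genes, the 20 highest ratios over other barcodes, the 10 highest and 10 lowest ratios between libraries among genes with at least 100 UMIs (leaving out mitochondrial, ribosomal, haemoglobin, antigen receptor, unnamed and Y-linked genes, Xist and markers of other cells), 2 to 4 genes per list with at least 100 UMIs, any transcription factor, surface, sensing or interferon gene, and Rcn2, Nrp2 and Itgb1. Genes named outside this rule, such as H2-D1, B2m, Flt3, Il7r, Tyrobp and Ifi27l2a, were chosen after their values were seen. The pDC rule, the lists and the alternatives were chosen with earlier results of these data known. Alternatives changed the scaling, the UMI minimum, the cells included and the depth; those on cells of high UMI count, neutrophil markers, Cd3 genes, the mitochondrial limit, the Ly6a split and list medians without dividing cells were added after seeing the data. A few genes are not reported here.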

Additional observations from a re-analysis of the deposited data

How the results depend on the processing

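No paired analysis was possible because each group has 1 library and the labels give no replicate numbers; for the same reason no library could be left out. The number of genes at least 2-fold higher in running was 200 with a minimum of 20 UMIs, 20 with 100 and 9 with 200, and of those lower 163, 23 and 8. The number lower was also 89 with at least 5 Siglech UMIs and 21 without dividing cells. The median of the G2 and M phase list was −1.11 with at least 5 Siglech UMIs. The cause of the last 3 differences was not tested. Among gene ratios whose interval lay off 0, sign changes were seen for Siglech (−0.066), Spi1 (0.15) and Ctsl (−0.029) without dividing cells, for Car1 without its top cells (−0.64), and for Wfdc17 without doublets (0.14), without its top cells (0.031) and without cells over 5% neutrophil markers (0.29). A further 20 genes with an interval that held 0 changed sign in at least 1 setting, among them Hspe1 (−0.12) and Hspd1 (−0.33) without their top cells, and Cd8b1 (−0.21), Flt3 (0.063), Itgb1 (−0.074) and Ifi30 (0.19) without dividing cells. Leaving out the sign changes named first, over 131 genes and 14 settings, 1706 recomputed gene ratios stayed within the counting interval of the reported value and 58 left it. The 58 belong to 43 of the 131 genes. The settings reuse the counts of the same 2 libraries, so a ratio that stayed is not an independent check. The ratio of the pDC shares ranged from 1.08 to 1.22 over 11 settings. The ratio of Ly6a ranged from 1.41 to 1.68 and the median of the MHC class II list from 0.39 to 0.61. The number of cells, 175 and 201, limits what can be read from genes with few UMIs.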
